A study of Homo sapiens with 12 samples.

Results

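These are the 10 genes with the strongest evidence of a lower level after antisense oligonucleotides against LINE1 RNA, in H9 human embryonic stem cells. They are SEMA6A, ALDH7A1, FOCAD, LRRN1, PCSK5, HEPH, RTCA, CACHD1, SESTD1 and N4BP1, out of 17228 genes tested and 53712 named genes in the count table. They were chosen on the contrast of ASO-L1 with ASO-Ctr in these same libraries: lower in ASO-L1 in all 4 pairs of libraries with the same number, a mean log2 CPM above 1, where CPM is counts scaled to library size, and the smallest p among the 4036 genes that met those conditions. The fall itself is therefore how the genes were found, and it is described below without a test.

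H9 is an established embryonic stem cell line, grown here in RSeT medium, which is meant to hold naive pluripotency. Cells were transfected with 25 nM of ASO-L1, antisense to L1 RNA, of SO-L1, the L1 oligos in the sense orientation, or of ASO-Ctr, antisense oligos with no specific target. All 12 cultures, 4 in each of the 3 groups, afterwards stood in medium with 10 nM DZNep, which lowers histone methylation, and 5 nM TSA, a histone deacetylase inhibitor. So there is no group without these 2 drugs. Trans-ISRIB at 0.7 µM, emricasan at 5 µM and Y-27632 at 10 µM were present in all groups until 24 h. The cells were collected at 48 h without sorting, so untransfected cells are part of every library. The study set out to learn how L1 bears on genes of the 8-cell stage.

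L1 elements are mobile DNA sequences that make up a large part of the human genome, and L1 RNA is abundant in early embryos and in naive stem cells. Antisense oligos pair with RNA of the complementary sequence and can lead to its cleavage or block its use. The 10 genes do not form 1 pathway. SEMA6A, LRRN1, HEPH and CACHD1 encode membrane proteins, PCSK5 a secreted protease, SESTD1 a lipid-binding adaptor, ALDH7A1 a metabolic enzyme, and FOCAD, RTCA and N4BP1 proteins linked to RNA turnover or RNA ends.

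The stretches before the start sites of 5 of the genes are shown because they include the most CpG-dense and the most CpG-poor of the stretches used, and those with the rarer motif described below. They are the 250 bases upstream of the annotated start from RefSeq (GRCh38.p14), read 5′ to 3′ on the gene's strand. Capitals mark GGGCGG, the GC box, on either strand, and GCATGCG, the core of the site of the factor NRF1, also on either strand. The positions are LRRN1 chr3:3799181-3799430 (plus strand), FOCAD chr9:20684009-20684258 (plus), N4BP1 chr16:48610181-48610430 (minus), RTCA chr1:100265966-100266215 (plus) and the outermost HEPH start chrX:66162421-66162670 (plus).
LRRN1: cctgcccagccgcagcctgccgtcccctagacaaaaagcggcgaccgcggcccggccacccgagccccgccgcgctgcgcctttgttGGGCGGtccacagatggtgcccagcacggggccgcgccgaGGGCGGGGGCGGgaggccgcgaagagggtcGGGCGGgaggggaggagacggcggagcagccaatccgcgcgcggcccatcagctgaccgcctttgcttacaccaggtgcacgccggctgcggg
FOCAD: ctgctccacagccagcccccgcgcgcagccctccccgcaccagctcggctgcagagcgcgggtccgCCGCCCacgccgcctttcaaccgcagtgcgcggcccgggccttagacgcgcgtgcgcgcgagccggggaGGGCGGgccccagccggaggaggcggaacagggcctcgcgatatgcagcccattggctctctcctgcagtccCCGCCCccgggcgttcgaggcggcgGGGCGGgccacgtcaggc
N4BP1: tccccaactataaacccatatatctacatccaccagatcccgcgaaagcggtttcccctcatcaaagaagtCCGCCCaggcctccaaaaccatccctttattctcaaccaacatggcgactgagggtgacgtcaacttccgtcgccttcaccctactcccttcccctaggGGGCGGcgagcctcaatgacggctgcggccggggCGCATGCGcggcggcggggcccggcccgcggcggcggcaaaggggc
RTCA: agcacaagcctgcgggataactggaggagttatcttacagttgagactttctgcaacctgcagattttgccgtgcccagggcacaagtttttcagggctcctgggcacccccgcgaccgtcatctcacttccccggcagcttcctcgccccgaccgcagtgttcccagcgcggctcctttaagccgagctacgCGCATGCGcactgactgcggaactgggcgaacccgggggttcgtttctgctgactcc
HEPH: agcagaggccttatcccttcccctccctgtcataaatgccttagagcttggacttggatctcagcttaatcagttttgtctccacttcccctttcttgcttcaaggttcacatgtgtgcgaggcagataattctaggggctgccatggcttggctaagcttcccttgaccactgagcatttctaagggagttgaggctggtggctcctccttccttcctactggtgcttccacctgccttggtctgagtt
In the LRRN1 stretch there were 33 CpG dinucleotides, and in the FOCAD stretch 35. The HEPH stretch had 1, and those before its other 2 annotated starts had 2 each. Promoters of 8 of the 10 genes were used, with 10 stretches in all, and those of SEMA6A and SESTD1 were not used here. Their median GC content was 62.0%, against 64.0% over the 16258 stretches of 11066 tested genes, and their median CpG count was 16.5 against 19.0.

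Both strands of the 10 stretches were searched for 12 short motifs. GGGCGG stood in 5 of 10 (ALDH7A1, FOCAD, LRRN1, N4BP1 and PCSK5), against 61.5% of all stretches searched. CCAAT stood in 5 of 10 (ALDH7A1, FOCAD, LRRN1 and both inner HEPH starts), against 32.3%. GCATGCG stood in RTCA and N4BP1, against 4.66% of all stretches, and was added to the search after the sequences had been read. Single stretches held the TATA box TATAAA (N4BP1, against 6.08%), the CRE core TGACGTC (N4BP1, 4.19%), the ATF4 element TGATGNA (the innermost HEPH start, 4.98%), the ETS site CCGGAAG (ALDH7A1, 12.5%), the SOX site CATTGTT (ALDH7A1, 1.78%) and the YY1 site AGATGGC (ALDH7A1, 3.35%). The E-box CACGTG (7.98% of all stretches), the AP-1 site TGANTCA (4.64%) and the octamer motif ATGCAAA (2.95%) stood in 0 of 10. None of the motifs was in all 10 stretches, and a match says only that these letters are present.

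Total counts lay between 20367989 and 32180891 per library, and mitochondrially encoded genes took 4.74% to 8.81% of them. After the group means were removed, libraries fell into sets, numbers 1 and 2 and numbers 3 and 4. Libraries of the same number correlated across genes at r between 0.450 and 0.561, the other number of the same set at 0.455 to 0.543, and numbers of different sets at -0.530 to -0.426. The labels do not say what a number shares or whether cultures were independent, so p-values measure the spread between these samples. The 10 listed pluripotency markers, POU5F1, SOX2 and NANOG among them, were all tested. Their summed level was 8745 to 9324 CPM in ASO-L1, 9913 to 10358 CPM in SO-L1 and 10017 to 10791 CPM in ASO-Ctr, and ASO-L1 was below ASO-Ctr for 5 of the 10 (edgeR, adjusted p under 0.05). Whether the cells were in the naive state was not tested.

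Among the membrane proteins, SEMA6A, a transmembrane semaphorin that binds plexin receptors in axon guidance, had 234, 238, 235 and 234 CPM in the ASO-L1 libraries 1 to 4. It had 355, 355, 334 and 341 CPM in SO-L1 and 359.8, 375, 351 and 352 CPM in ASO-Ctr. The ASO-L1 libraries lay close together and below every other library, while the SO-L1 and ASO-Ctr libraries overlapped. Its ASO-L1 mean was 65.4% of the ASO-Ctr mean (log2 change -0.61 ± 0.03, where ± is the standard error of the fit). LRRN1, a leucine-rich repeat membrane protein of the nervous system, ranged from 274 to 284 CPM in ASO-L1, from 373 to 381 CPM in SO-L1 and from 374 to 387 CPM in ASO-Ctr. It had the smallest change of the 10, at 73.6% of the ASO-Ctr mean (-0.44 ± 0.03), and the highest level per length, with 65.6 CPM per kb of annotated exon in ASO-L1 and 89.1 in ASO-Ctr. In bulk RNA, fewer cells of a type and less RNA per cell cannot be told apart, here and for the other genes.

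CACHD1, a membrane protein related to the alpha-2-delta subunits of calcium channels, had 183, 184, 168 and 170.4 CPM in the ASO-L1 libraries. It had 275, 281, 251 and 263 CPM in SO-L1 and 285, 292, 265 and 272 CPM in ASO-Ctr. In each group numbers 1 and 2 were above numbers 3 and 4, and the log2 difference of numbers 3 and 4 from 1 and 2 was -0.12 in ASO-L1, -0.11 in SO-L1 and -0.10 in ASO-Ctr. Within pairs of the same number, ASO-L1 was below ASO-Ctr by a log2 difference between -0.67 and -0.63, so the shift between sets was in both groups alike. SESTD1, an adaptor with SEC14 and spectrin domains that binds TRPC channels, ranged from 34.3 to 38.1 CPM in ASO-L1, from 51.8 to 55.4 CPM in SO-L1 and from 53.3 to 55.4 CPM in ASO-Ctr. ASO-L1 stood at 66.1% of ASO-Ctr (-0.60 ± 0.05).

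PCSK5, a protease that cuts the precursors of secreted signalling proteins, was the lowest of the 10 per length, at 1.43 CPM per kb of exon in ASO-L1 and 2.31 in ASO-Ctr. It had 17.1, 18.3, 18.8 and 18.6 CPM in the ASO-L1 libraries, 27.9, 27.6, 27.3 and 27.6 CPM in SO-L1 and 28.9, 29.5, 28.3 and 30.7 CPM in ASO-Ctr. The 3 groups did not overlap, although SO-L1 lay far nearer to ASO-Ctr, at 94.0% of its mean, than ASO-L1 did at 62.0% (-0.69 ± 0.05). Behind these levels stood 435 to 583 counts per ASO-L1 library and 587 to 865 per ASO-Ctr library, the fewest of the 10 genes.

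HEPH, the copper-dependent ferroxidase that oxidises iron as it leaves the cell, was intermediate in SO-L1. It had 41.2, 39.1, 42.9 and 44.1 CPM in ASO-L1, 54.3, 56.9, 56.2 and 57.4 CPM in SO-L1, and 68.5, 71.1, 64.3 and 65.2 CPM in ASO-Ctr. No library of 1 group overlapped with those of another. The ASO-L1 mean was 62.2% and the SO-L1 mean 83.6% of the ASO-Ctr mean, with log2 changes of -0.69 ± 0.05 for ASO-L1 against ASO-Ctr, -0.43 ± 0.05 for ASO-L1 against SO-L1 and -0.26 ± 0.05 for SO-L1 against ASO-Ctr.

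ALDH7A1, an aldehyde dehydrogenase of lysine breakdown, had 146, 142, 148 and 147 CPM in ASO-L1, 227, 225, 224 and 223 CPM in SO-L1 and 219, 231, 212 and 226 CPM in ASO-Ctr. The SO-L1 libraries stood within the range of the ASO-Ctr libraries, and ASO-L1 was at 65.7% of ASO-Ctr (-0.61 ± 0.04). FOCAD, a partner of the SKI complex that feeds RNA to the exosome, had the largest fall of the 10, with 42.1, 44.6, 45.5 and 46.6 CPM in ASO-L1, 70.2, 65.6, 69.5 and 72.0 CPM in SO-L1 and 72.9, 73.8, 75.8 and 77.6 CPM in ASO-Ctr. The ASO-L1 mean was 59.6% and the SO-L1 mean 92.4% of the ASO-Ctr mean (-0.75 ± 0.05 for ASO-L1). RTCA, a cyclase that acts on the phosphate at RNA ends, ranged from 31.6 to 34.0 CPM in ASO-L1, from 49.1 to 50.8 CPM in SO-L1 and from 46.8 to 50.7 CPM in ASO-Ctr, so ASO-L1 stood at 67.0% (-0.58 ± 0.04). N4BP1, a ribonuclease named for its binding of the ubiquitin ligase NEDD4, ranged from 43.1 to 45.8 CPM in ASO-L1, from 60.2 to 64.9 CPM in SO-L1 and from 62.0 to 64.0 CPM in ASO-Ctr. That is 69.6% of ASO-Ctr (-0.52 ± 0.04).

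**Figure D1:**
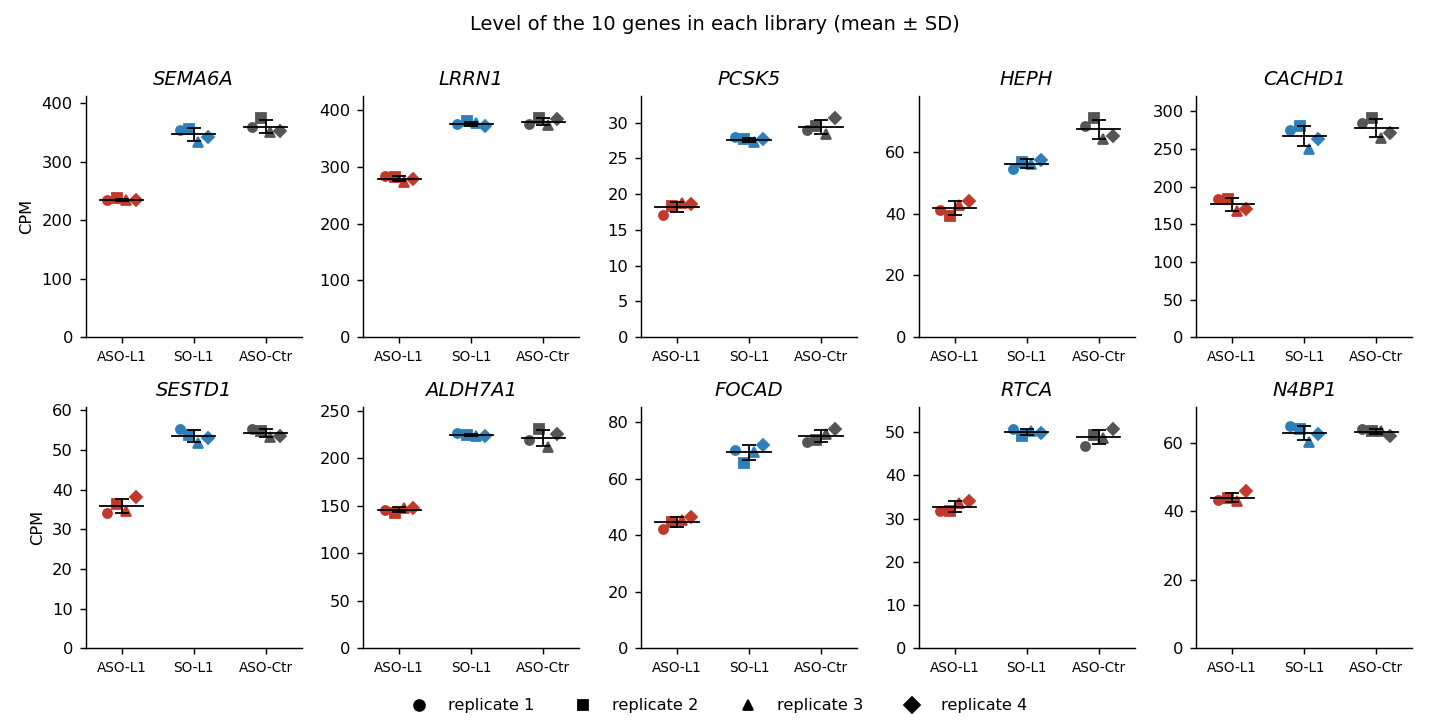
Level of each of the 10 genes in CPM (y axes, from 0) in every library of ASO-L1, SO-L1 and ASO-Ctr, with marker shape for the library number and black bars for the mean ± SD of 4 libraries. For each gene the 4 ASO-L1 libraries lie below all 8 others, and for HEPH the SO-L1 libraries lie between both other groups.

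For all 10 genes every ASO-L1 library was below every ASO-Ctr library and below every SO-L1 library. Over all genes tested such separation held for 12.2% against ASO-Ctr and for 11.5% against SO-L1, and lower calls in the edgeR quasi-likelihood test made up 10.7% and 9.64%. Nothing is read from these counts, since the first contrast chose the genes and the second shares the ASO-L1 libraries with it. The median log2 change of the 10 was -0.61 against ASO-Ctr and -0.59 against SO-L1, beside medians of -0.00 in both contrasts over all genes tested. The 10 are not the genes with the largest falls: of the 1840 genes called lower in this contrast, 107 had a larger fall than FOCAD and 12.9% a larger one than the median of the 10. Their median standard error was 0.0444 on the log2 scale, against 0.0706 over the lower genes and 0.108 over all genes tested. A small standard error as well as size thus placed them first. Their median of mean log2 CPM was 5.88, against 5.03 over the lower genes. The parts of level and of spread between libraries in the standard error were not told apart.

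The last gene inside the choice was N4BP1, and the next by the same order were ARHGAP28, COMMD10 and RAP2B. ARHGAP28 averaged 14.9 ± 0.521 CPM in ASO-L1, 24.2 ± 1.25 CPM in SO-L1 and 25.0 ± 1.18 CPM in ASO-Ctr (log2 change -0.75). COMMD10, a subunit of the Commander trafficking complex, averaged 19.3 ± 0.792 CPM in ASO-L1, 24.1 ± 0.990 CPM in SO-L1 and 30.5 ± 0.794 CPM in ASO-Ctr (-0.66), so that its SO-L1 level was intermediate as well. RAP2B, a small GTPase, averaged 76.9 ± 2.53 CPM in ASO-L1, 105.8 ± 2.78 CPM in SO-L1 and 106.6 ± 1.03 CPM in ASO-Ctr (-0.47). These are SDs over 4 libraries.

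The contrast of SO-L1 with ASO-Ctr asks whether L1 oligos of the other orientation bear on the same genes. It used no ASO-L1 library, but it shares the ASO-Ctr libraries with the choice of the genes. That choice favours genes that stand high in ASO-Ctr, and so negative values in this contrast. None of the 10 passed in the edgeR test (0 of 10, against 0.029% of all genes tested, 5 genes, all lower in SO-L1). At an unadjusted p under 0.05, 2 of 10 were lower, HEPH and FOCAD, against 3.06% of all genes in either direction. DESeq2 called 1 of 10, HEPH, and 0.302% of all genes. The median log2 change of the 10 was -0.04 and that of all genes tested 0.00, and 8 of 10 had a negative value.

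HEPH had an edgeR adjusted p of 0.101 for SO-L1 against ASO-Ctr. With the library number as a block it passed (-0.26, edgeR adjusted p = 1.98e-04, where 1.41% of all genes passed), and DESeq2 gave an adjusted p of 7.02e-04. Its 4 same-number differences were -0.33, -0.32, -0.19 and -0.18 on the log2 scale, lower in 4 of 4 pairs. In the edgeR fit of numbers 1 and 2 alone it was -0.33 (adjusted p = 3.91e-04), and in numbers 3 and 4 alone -0.19 (adjusted p = 0.0236). The sets moved in opposite ways in the 2 antisense groups: ASO-L1 had 43.5 CPM in numbers 3 and 4 and 40.1 CPM in numbers 1 and 2, and ASO-Ctr 64.7 CPM in numbers 3 and 4 and 69.8 CPM in numbers 1 and 2.

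FOCAD was at -0.11 ± 0.05 in SO-L1 against ASO-Ctr and was lower in 4 of 4 pairs, with an unadjusted p of 0.0265 and an edgeR adjusted p of 0.999961, or 0.144 with the block. PCSK5 (-0.09 ± 0.05), CACHD1 (-0.06 ± 0.05) and SEMA6A (-0.05 ± 0.03) were also lower in 4 of 4 pairs and did not pass. All SO-L1 libraries lay below all ASO-Ctr libraries for FOCAD, PCSK5 and HEPH, 3 of 10, against 1.26% of all genes tested. The choice favours genes with high and close ASO-Ctr values, so nothing is read from this count. SESTD1 stood at -0.02 ± 0.05, LRRN1 at -0.01 ± 0.03, N4BP1 at -0.01 ± 0.04, ALDH7A1 at 0.02 ± 0.04 and RTCA at 0.03 ± 0.04. For these 5 genes the SO-L1 and ASO-Ctr libraries overlapped, and a p that misses the threshold does not show that the groups were equal.

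**Figure D2:**
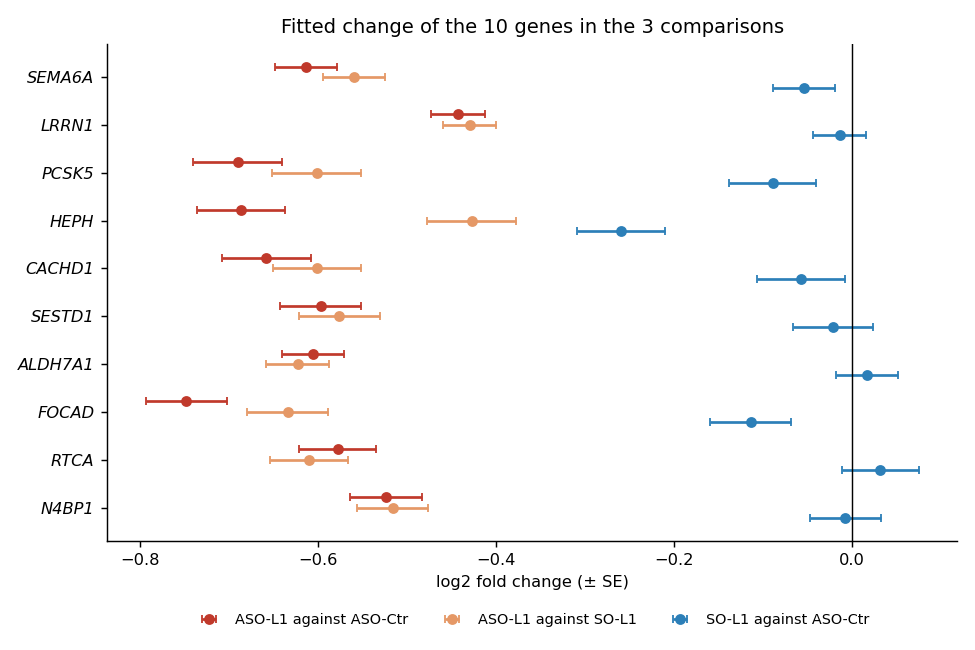
Fitted log2 fold change with its standard error (x axis) for the 10 genes (rows) in ASO-L1 against ASO-Ctr, ASO-L1 against SO-L1, and SO-L1 against ASO-Ctr. Both ASO-L1 contrasts lie between -0.75 and -0.43 for every gene, and SO-L1 against ASO-Ctr lies between -0.26 (HEPH) and 0.03 (RTCA).

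Taken by pairs of the same number, ASO-L1 was below ASO-Ctr in 4 of 4 pairs for each gene, a condition of the choice, and the pairs differed in how far. The widest range was in HEPH, with -0.86 in pair 2 and -0.56 in pair 4 on the log2 scale. SESTD1 ranged from -0.69 in pair 1 to -0.49 in pair 4, and PCSK5 from -0.75 in pair 1 to -0.59 in pair 3. The narrowest were CACHD1, FOCAD (-0.79 to -0.73) and LRRN1 (-0.46 to -0.40). Between the sets of numbers, the median absolute log2 difference of numbers 3 and 4 from 1 and 2 over the 10 genes was 0.0577 in ASO-L1, 0.0447 in SO-L1 and 0.0473 in ASO-Ctr. Over all genes tested with a count in every library of the group it was 0.172 in ASO-L1, 0.195 in SO-L1 and 0.183 in ASO-Ctr. The largest of the 10 in ASO-L1 and SO-L1 was CACHD1, and in ASO-Ctr HEPH (-0.11), which had 0.12 in ASO-L1. A small standard error was part of what ranked the genes, so this too is a description.

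**Figure D3:**
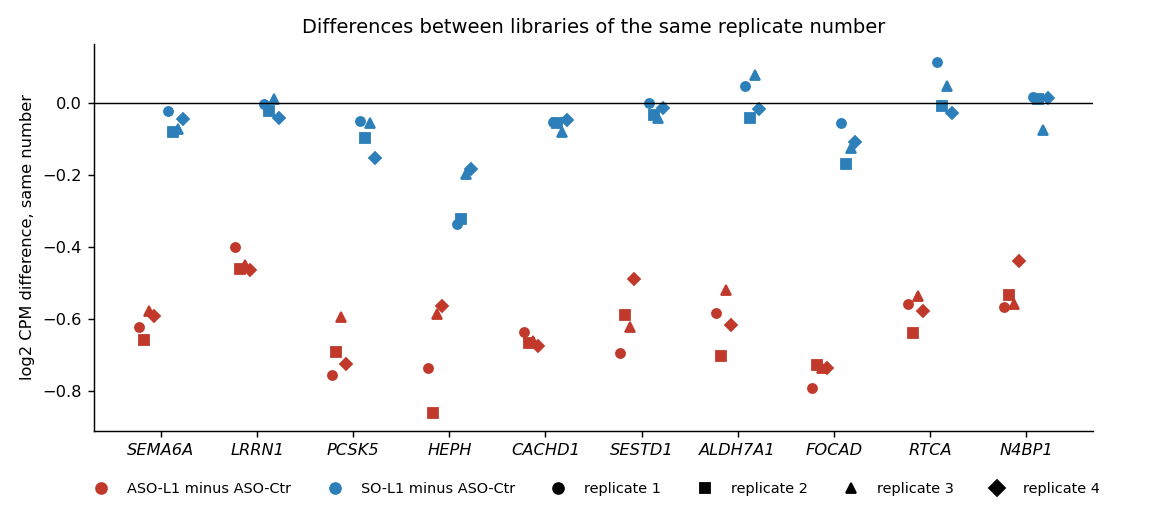
Differences in log2 CPM between libraries of the same number (y axis) for each of the 10 genes, ASO-L1 minus ASO-Ctr in red and SO-L1 minus ASO-Ctr in blue, with marker shape for the number. All red points lie between -0.86 and -0.40, and HEPH has the lowest blue points, at -0.33 to -0.18.

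Over the 12 libraries the 10 genes shared 1 profile. The Pearson correlation of each with the mean of the other 9, in standardised log2 CPM, was between 0.930 for HEPH and 0.996 for SEMA6A, as a description over libraries that share the group difference the genes were chosen on. Of all other tested genes, PARD3, a cell polarity scaffold, was most like the mean of the 10 (r = 0.993), with 64.1 ± 2.05 CPM in ASO-L1, 82.6 ± 1.12 CPM in SO-L1 and 85.1 ± 2.15 CPM in ASO-Ctr. ARHGAP28 (r = 0.993), BRIP1, a DNA repair helicase (r = 0.992), UBE4B, a ubiquitin ligase (r = 0.990), and ELOVL6, a fatty acid elongase (r = 0.989), came next. BRIP1 averaged 19.9 ± 0.552 CPM in ASO-L1, 30.9 ± 0.793 CPM in SO-L1 and 31.2 ± 1.60 CPM in ASO-Ctr.

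The genes lie on chromosomes 5 (SEMA6A and ALDH7A1), 9 (FOCAD and PCSK5), 1 (RTCA and CACHD1), 3, X, 2 and 16, and most are long. By GENCODE release 29, matched by symbol, PCSK5 spans 472 kb with 39 exon blocks, FOCAD 338 kb with 56, CACHD1 222 kb, SESTD1 163 kb, SEMA6A 131 kb and HEPH 106 kb. N4BP1 spans 81.4 kb, ALDH7A1 64.2 kb, LRRN1 48.3 kb and RTCA 26.6 kb. The median span of the 10 was 119 kb, with 6 of 10 over 100 kb, against 33.3 kb and 20.9% over the 13741 tested coding genes with a match. It was close to that of all 1653 coding genes called lower in ASO-L1, with a median of 102 kb and 50.6% over 100 kb. The 1721 higher coding genes had a median of 21.9 kb and 7.38% over 100 kb.

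Across all coding genes tested, the ASO-L1 difference from ASO-Ctr went with span. The median log2 change was 0.06 for genes under 10 kb, 0.05 for 10 to 30 kb, -0.01 for 30 to 100 kb, -0.12 for 100 to 300 kb and -0.35 for genes over 300 kb. Lower calls in edgeR made up 4.24%, 5.65%, 11.1%, 24.6% and 45.2% of these classes, and higher calls 16.1%, 16.8%, 11.96%, 5.46% and 0.787%. PCSK5 (-0.69) and FOCAD (-0.75), in the longest class, and RTCA (-0.58), LRRN1 (-0.44), ALDH7A1 (-0.61) and N4BP1 (-0.52), all under 100 kb, lay below the median of their class. The genes were chosen for their fall in this contrast, so nothing is read from that. For SO-L1 against ASO-Ctr the medians of the classes ran from 0.01 for the shortest to -0.05 for the longest. The part of span in the level of the 10 genes was not tested.

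**Figure D4:**
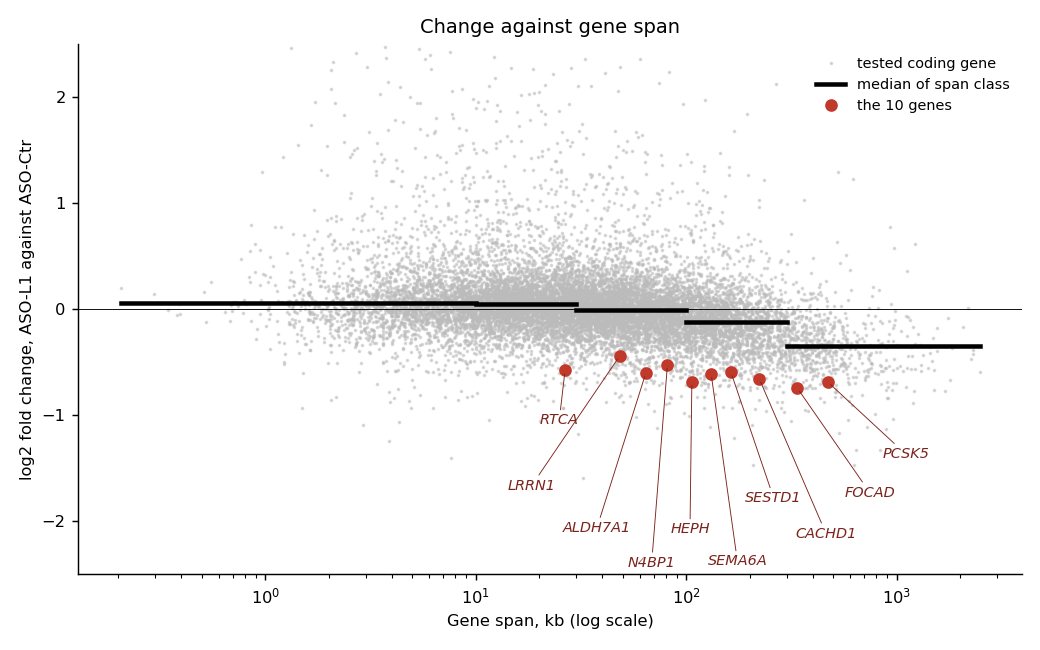
Log2 fold change of ASO-L1 against ASO-Ctr (y axis) against the genomic span of each tested coding gene in kb (x axis, log scale), with the 10 genes in red and black bars for the median of each span class. The medians run from 0.06 for genes under 10 kb to -0.35 over 300 kb. The 10 genes, chosen for their fall in this contrast, lie below them. Beyond ±2.5 lie 50 genes, which are not drawn.

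Relatives and partners of the 10 genes were taken from 11 lists by function, which held 183 tested genes. Of these, 20 (10.9%) were called higher in ASO-L1 relative to ASO-Ctr and 29 (15.8%) lower, against 11.6% and 10.7% of all genes tested, and their median log2 change was -0.05. With the library number as a block, 37 (20.2%) were higher and 59 (32.2%) lower, against 22.5% of all genes tested in each direction. In SO-L1 against ASO-Ctr 0 of the 183 passed in edgeR without the block; with it 5 passed, against 1.41% of all genes. These, given with their values in view, were SEMA3B and CACNA2D1, higher in SO-L1, and SEMA3A, TRPC4 and SEMA6D, lower. Of the 49 calls in ASO-L1 against ASO-Ctr without the block, 32 held in all 12 fits that left out 1 library, and 17 were lost in at least 1. Those fits had no block either. With the block and all libraries, each of the 17 passed (edgeR adjusted p up to 0.00341, ZC3H12C). All p-values for related genes are edgeR adjusted p-values over all genes tested, for ASO-L1 against ASO-Ctr.

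Among 30 tested semaphorins and their receptors, the family of SEMA6A, 4 were higher and 6 lower. SEMA6D, a class 6 semaphorin like SEMA6A, fell to 1.47 ± 0.212 CPM in ASO-L1, against 2.68 ± 0.414 CPM in ASO-Ctr, and was at 1.57 ± 0.149 CPM in SO-L1 (log2 change -0.87 ± 0.15 for ASO-L1, adjusted p = 0.00142). The receptor PLXND1 rose to 82.7 ± 3.77 CPM in ASO-L1, against 37.8 ± 4.60 CPM in ASO-Ctr (1.13 ± 0.09). The co-receptor NRP2 rose to 16.7 ± 0.232 CPM, against 8.82 ± 1.63 CPM in ASO-Ctr (0.92 ± 0.15). Of 21 tested leucine-rich repeat membrane proteins, relatives of LRRN1, 3 were higher and 4 lower. SLITRK2 rose to 25.5 ± 1.56 CPM in ASO-L1, against 15.1 ± 0.959 CPM in ASO-Ctr (0.76 ± 0.07), while FLRT2 (-0.49 ± 0.10) and SLITRK3 (-0.59 ± 0.14) fell. With 1 library left out, the count of higher genes in this list was between 1 and 4, since LRRTM1 lost its call in 6 of 12 fits (adjusted p up to 0.117) and LRRC4 without ASO-Ctr replicate 2 (adjusted p = 0.0502).

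Among the tested convertases, the family of PCSK5, PCSK6 fell to 2.61 ± 0.156 CPM in ASO-L1, against 3.81 ± 0.702 CPM in ASO-Ctr (-0.55 ± 0.14). FURIN, the general convertase of the secretory pathway, rose to 87.9 ± 2.91 CPM, against 73.2 ± 1.52 CPM in ASO-Ctr (0.26 ± 0.06). Of 17 tested genes of iron and copper handling, the setting of HEPH, 4 were higher and 1 lower. SLC40A1, the iron exporter ferroportin, rose to 4.31 ± 0.325 CPM, against 2.90 ± 0.274 CPM in ASO-Ctr (0.57 ± 0.12), and the ferritin light chain FTL to 1147 ± 49.0 CPM, against 792 ± 64.4 CPM in ASO-Ctr (0.54 ± 0.07). SLC11A2, an iron importer, fell to 81.3 ± 4.11 CPM, against 108 ± 4.50 CPM in ASO-Ctr (-0.41 ± 0.05). The other higher genes, FTH1 and HMOX1, lost their calls without ASO-L1 replicates 1 or 2 or ASO-Ctr replicate 1 (FTH1, adjusted p up to 0.0666) and without ASO-L1 replicates 3 or 4 or ASO-Ctr replicates 1 or 2 (HMOX1, up to 0.0849). Both are given although the naming rule leaves them out, with their values in view.

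Around CACHD1, 16 calcium channel subunits were tested, with 0 higher and 2 lower. With the library number as a block, 1 was higher and 7 lower. Their median log2 change was -0.24, the lowest of the 11 lists, against -0.00 over all genes tested. The part of gene span in it was not tested. CACNA2D3, an alpha-2-delta subunit, fell to 5.02 ± 0.501 CPM in ASO-L1, against 8.53 ± 0.956 CPM in ASO-Ctr (-0.76 ± 0.10, adjusted p = 2.19e-04). CACNA1A, a pore subunit, was at -0.29 ± 0.09 and lost its call without ASO-L1 replicate 2 or ASO-Ctr replicates 3 or 4 (adjusted p up to 0.0747). Around SESTD1, 17 TRPC channels and genes of planar cell polarity were tested, with 4 higher and 3 lower. TRPC4 fell to 5.04 ± 0.615 CPM in ASO-L1, against 8.32 ± 0.980 CPM in ASO-Ctr (-0.72 ± 0.15). It was at 6.01 ± 1.22 CPM in SO-L1, with log2 changes of -0.46 ± 0.15 for SO-L1 against ASO-Ctr and -0.26 ± 0.15 for ASO-L1 against SO-L1. The receptor FZD6 changed by -0.33 ± 0.07 in ASO-L1 against ASO-Ctr. DVL3, which relays Wnt signals, rose to 90.9 ± 5.02 CPM, against 77.1 ± 1.90 CPM in ASO-Ctr (0.24 ± 0.05).

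Of 16 tested aldehyde dehydrogenases other than ALDH7A1, 1 was higher and 2 lower, and none of these calls held in all fits with 1 library left out. ALDH1B1 (-0.24 ± 0.07) lost its call in 5 of 12 such fits, ALDH3A2 (-0.12 ± 0.04) in 11 and ALDH16A1 (0.19 ± 0.06) in 6, with adjusted p up to 0.0735, 0.139 and 0.0900. With the library number as a block, absent from those fits, they passed (edgeR adjusted p = 3.27e-06, 4.83e-04 and 6.41e-04 in the same order). Of 11 tested genes of lysine breakdown, the pathway of ALDH7A1, 0 were higher and 4 lower. AASS, which starts the pathway, fell to 343 ± 24.6 CPM in ASO-L1, against 436 ± 43.4 CPM in ASO-Ctr (-0.35 ± 0.09, adjusted p = 0.0141). DHTKD1 (-0.27 ± 0.06) and GCDH (-0.21 ± 0.04), both of which act after the ALDH7A1 step, also fell. The remaining one, HADH, lost its call in 10 of 12 fits (adjusted p up to 0.130) and is likewise given with its value in view. With the block, 1 gene of lysine breakdown was higher and 7 lower.

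Of 16 tested genes of the SKI complex and the RNA exosome, the partners of FOCAD, 1 was higher and 0 lower. This was EXOSC6 (0.35 ± 0.10), which lost its call without ASO-L1 replicates 3 or 4 or ASO-Ctr replicates 1 or 2 (adjusted p up to 0.0610). With the library number as a block, 1 gene of this list was higher and 3 lower. Of 14 tested genes of the tRNA ligase complex and RNA end processing, around RTCA, 0 were higher and 2 lower. These were the ligase subunits FAM98A (-0.27 ± 0.07), whose call was lost without ASO-Ctr replicate 4 (adjusted p = 0.0567), and C14orf166 (-0.12 ± 0.04), lost in 5 of 12 fits (up to 0.109). With the block, 3 genes of the list around RTCA were higher and 3 lower. Of 18 NYN nucleases and NEDD4-type ligases, around N4BP1, 2 were higher and 3 lower. ZC3H12A, an NYN-type ribonuclease of inflammatory mRNAs, rose to 10.5 ± 1.46 CPM in ASO-L1, against 5.49 ± 0.708 CPM in ASO-Ctr (0.94 ± 0.11). The ligases SMURF2 (-0.58 ± 0.07) and WWP2 (-0.35 ± 0.07) fell, SMURF2 to 27.9 ± 1.45 CPM, against 41.6 ± 2.87 CPM in ASO-Ctr. The other 2 calls, ZC3H12C and NEDD4L, are given with their values in view and were lost in 3 and 4 of 12 fits.

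**Figure D5:**
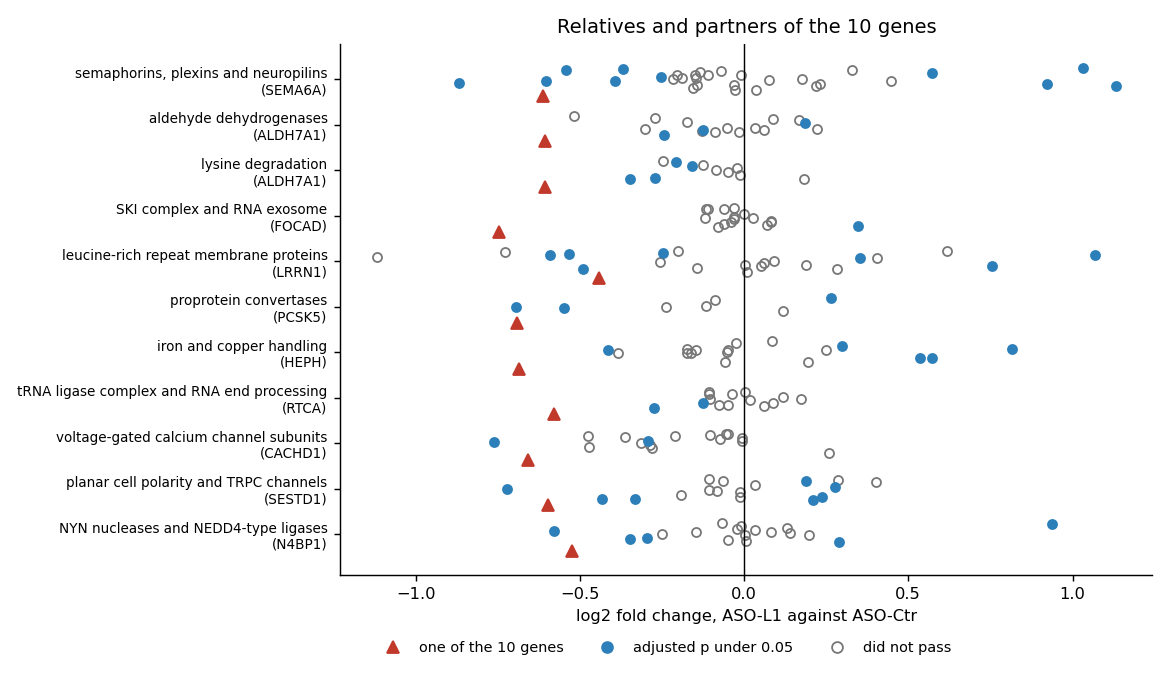
Log2 fold change of ASO-L1 against ASO-Ctr (x axis) for the 183 tested relatives and partners in 11 lists (rows), with filled circles for an edgeR adjusted p under 0.05, open circles for the others, and a triangle for the member of the 10 that each list belongs to. In all lists the triangle lies left of 0, whereas the relatives lie on both sides, with 20 higher and 29 lower.

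Summed over each list, markers of other cell types were low beside the pluripotency markers. The pluripotency sum was itself lower in every ASO-L1 library than in any other. The part of these markers in the levels of the 10 genes was not tested. The 8 listed fibroblast and feeder markers summed to 301 to 399 CPM in ASO-L1, 242 to 367 CPM in SO-L1 and 255 to 383 CPM in ASO-Ctr, with 1 higher in ASO-L1. COL1A2, COL1A1 and THY1 made up most of this, with means of 149, 116 and 83.4 CPM in ASO-L1. In SO-L1 their means were 171, 65.2 and 66.4 CPM, and in ASO-Ctr 169, 66.4 and 76.7 CPM. DCN and LUM were at or near 0. The 8 trophectoderm and amnion markers summed to 4.68 to 7.30 CPM in ASO-L1, with 2 higher. Their sums were 3.40 to 4.64 CPM in SO-L1 and 2.90 to 4.30 CPM in ASO-Ctr. Every ASO-L1 library thus lay above the others, at a level of a few CPM. KRT7 and GATA2 made up most of this, with means of 2.94 and 2.25 CPM in ASO-L1. Their means were 1.76 and 1.14 CPM in SO-L1 and 1.52 and 1.09 CPM in ASO-Ctr. The other markers of this list had lower means in every group. The 6 primitive endoderm markers summed to 1.73 to 2.55 CPM in ASO-L1, 0.593 to 1.39 CPM in SO-L1 and 0.820 to 1.55 CPM in ASO-Ctr, likewise without overlap of ASO-L1 with the other groups, with 1 higher and TTR at 0 in every library. The 8 mesoderm and neural markers summed to 410.1 to 454 CPM in ASO-L1, 346 to 466 CPM in SO-L1 and 348 to 427 CPM in ASO-Ctr, with 1 higher and 1 lower. TUBB3 made up most of this, with means of 399 CPM in ASO-L1, 379 CPM in SO-L1 and 364 CPM in ASO-Ctr. In ASO-L1 that was above the mean of the pluripotency marker SOX2 (357 CPM).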

How the data were processed

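RNA was measured in 12 libraries of H9 cells, made as strand-marking poly(A) libraries per the labels. Per the submitters' processing notes, Trim Galore 0.4.0, TopHat2 2.0.13 and featureCounts of Subread 1.5.0 were used with genome build hg19. The strand setting is not given in the sources used here, so antisense overlaps cannot be told apart. The authors deposited raw counts per gene symbol (53712 named genes, with 1 unnamed row of 10 counts left out). These counts carry the label rmDup, and whether duplicate reads or duplicate gene rows were removed is not stated. The authors also deposited a table of log2 normalised, batch-corrected values, whose batches are not stated, and a table of log2 fold changes with p-values for ASO-L1 against SO-L1.

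The deposited counts went into edgeR 4.0.16 (R 4.3.3), with filterByExpr (least count 10, least total 15), TMM factors and 1 robust quasi-likelihood fit over all 12 libraries. Calls are two-sided, at an adjusted p under 0.05 (Benjamini-Hochberg over the 17228 genes left). CPM used effective library sizes, and log2 CPM a prior count of 2. The script was tested on simulated data, for ASO-L1 against ASO-Ctr. There it called 55.1% of the 1.5-fold and 77% of the 2-fold changes put in, and 4 unchanged genes.

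The members and all lists were chosen with earlier results of these data known. Named genes are the 10, the next 3 in the same order, up to 3 related genes per list with the smallest p among those that passed, and the 5 genes most correlated with the mean of the 10. Of the related genes this takes, 1 is not reported here. Gene spans came from GENCODE release 29 (14660 of 17228 symbols matched). Exon length is the union of all annotated exons, which understates the level of a gene with many isoforms.

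After group means were removed, same-number libraries correlated at 0.450 to 0.561 and other numbers of the same set at 0.455 to 0.543. The correlations thus mark the sets and do not show that a number pairs the samples. The number was still used as a block, which also takes out the difference between the sets. Alternatives were the number as a block, DESeq2 1.42.0 (Wald test, and its size factors in edgeR), no filter, each library left out, each set of numbers alone, and limma 3.58.1 on the batch-corrected table.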

Additional observations from a re-analysis of the deposited data

How the results depend on the processing

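All 10 genes were called lower in both ASO-L1 contrasts under every alternative run, which the choice of the genes on these libraries fixes and which is no sign of stability. Their log2 changes against ASO-Ctr with 1 library left out stayed within -0.77 (FOCAD) and -0.43 (LRRN1). For SO-L1 against ASO-Ctr, 0 of the 10 passed in the main analysis and with any 1 library left out (HEPH -0.28 to -0.23, edgeR adjusted p 0.125 to 0.384). With the replicate block, DESeq2, numbers 1 and 2 alone, numbers 3 and 4 alone, or limma on the batch-corrected table, 1 passed, HEPH, with log2 changes of -0.26, -0.26, -0.33, -0.19 and -0.26. The block changed no other call of the 10. The choice of the genes favours negative values in this contrast, so these calls are a description. For SO-L1 against ASO-Ctr, values near 0 turned sign: with 1 library left out, ALDH7A1 lay between -0.00757 (without ASO-Ctr replicate 3) and 0.0377, and N4BP1 between -0.0225 and 0.0145 (without SO-L1 replicate 3), and N4BP1 was 0.0169 in numbers 1 and 2 alone. The cause was not tested.

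Counts over all genes grew where the spread tied to the numbers was taken out, in part over unlike sets of genes. The batch-corrected table holds 21097 genes, and its limma fit had no term for the batches. Fits of 1 set of numbers filtered the genes on their own. For ASO-L1 against ASO-Ctr, 3869 genes were higher and 3878 lower with the replicate block, 3024 and 3021 in numbers 1 and 2, 3131 and 2972 in numbers 3 and 4, and 4404 and 4334 in the batch-corrected table. For ASO-L1 against SO-L1 these were 3727 and 3742, 2963 and 2900, 3070 and 2791, and 4353 and 4155. For SO-L1 against ASO-Ctr they were 73 and 170, 43 and 81, 64 and 137, and 118 and 249, with 7 and 45 in DESeq2 and 1 higher with no filter. With 1 library left out, ASO-L1 against ASO-Ctr gave 1619 to 2021 higher and 1467 to 1840 lower genes. ASO-L1 against SO-L1 gave 1457 to 1832 higher and 1284 to 1640 lower, and SO-L1 against ASO-Ctr 0 higher and 5 to 7 lower. Of the related genes, 37 (20.2%) were higher and 59 (32.2%) lower with the replicate block, against 22.5% of all genes in each direction.

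Sets of 2 libraries per group give few degrees of freedom. The level of L1 RNA and protein were not analysed here, and no library lacked DZNep and TSA. None of the 30 sets of 4 libraries of 1 gene in 1 group had a library standing apart by Dixon's criterion.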

Other observations

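In the authors' deposited table for ASO-L1 against SO-L1, all 10 genes had negative log2 fold changes, between -0.63 (FOCAD) and -0.43 (LRRN1 and HEPH). Ordered by the p-value of the authors' deposited table among its lower genes alone, ALDH7A1 came at place 1, SEMA6A at 2, FOCAD at 3, CACHD1 at 4 and LRRN1 at 7. RTCA came at 8, N4BP1 at 16, SESTD1 at 17, PCSK5 at 38 and HEPH at 161. Over all 21414 genes of the table, in both directions, the places of the 10 ran from 28 (ALDH7A1) to 438 (HEPH). That table comes from libraries used here too, so it is no independent measure.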
